A study of Mus musculus with 16 samples.

Results

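The Rab family of small GTPases was described across the 4 groups of an RNA sequencing study of LPS-treated mouse macrophages. Members were all genes whose symbol is Rab followed by a number and at most a letter and a further digit, with a mean of at least 1 CPM (a count scaled to a library total common to all libraries) over the 16 libraries. Of 27179 genes in the table, 59 had such a symbol and 43 reached the mean, and all 43 also passed the low-count filter of the test. The cells were iBMDM MyD88-AGF, macrophages grown from mouse bone marrow and then immortalised as a line, whose genotype is labelled MyD88-AGF WT in every group, and the series title names the assembly of the myddosome, the MyD88 signalling complex, as its subject. Responders were cells given lipopolysaccharide (LPS) at 10 ng/mL for 6 h and sorted for high side scatter, the light deflected by structures inside a cell. Bystanders came from the same LPS treatment and were sorted for low side scatter. The LPS pool was LPS-treated and passed through the sorter with no gate after the gated cells had been collected, and untreated cells were passed through without a gate as well. Each group had 4 libraries, and the labels do not say that these came from separate cultures, so the spread between them may be technical.

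Rab proteins are switches of membrane traffic. A Rab bound to GTP sits on one kind of membrane and recruits effectors, which are tethers, motors and enzymes that move and fuse vesicles. Exchange factors (GEFs) load GTP and so set where a Rab is active, GTPase-activating proteins (GAPs) end the signal, and GDP dissociation inhibitors carry the prenylated, inactive Rab through the cytosol. In macrophages Rabs drive the maturation of phagosomes, the delivery of cytokines to the surface, and the supply and removal of Toll-like receptors. The transcript level of a Rab gene does not show how much of the protein is in its GTP-bound state.

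Library totals ran from 15287344 to 25193162 counts. Levels are CPM computed on library sizes corrected with TMM factors (trimmed mean of M-values), given per library or as mean ± SD over 4 libraries. Differences are fold changes from edgeR's quasi-likelihood test, called at an adjusted p under 0.05 over 12589 genes, and ± after a log2 fold is its standard error. Of 8 macrophage markers, among them Adgre1, Csf1r and Cd68, all 8 averaged over 1 CPM in bystanders and untreated cells and 7 did so in responders and the LPS pool, where Mertk fell under 1 CPM. Tnf, a cytokine gene induced by LPS, averaged 2219 CPM in responders, 188.5 CPM in bystanders, 1957 CPM in the ungated pool and 78.6 CPM in untreated cells. Transcripts of neural cells stood out in 6 libraries (responder replicate 1, bystander replicates 3 and 4, LPS pool replicates 3 and 4 and untreated replicate 1), in which Gap43, Stmn2 and Syt1 summed to 4.80 to 9.22 CPM, against 0.0441 to 0.430 CPM in the other 10. Lymphocyte and neutrophil markers summed to at most 1.28 CPM in any library, and 5 fibroblast markers to 7.67 to 27.0 CPM in responders, 1.98 to 78.6 CPM in bystanders, 2.82 to 98.8 CPM in the ungated pool and 8.20 to 35.9 CPM in untreated cells. The part of these other transcripts in the results was not tested, except for the neural ones by leaving out the 6 libraries. Those 6 were picked by neural transcripts alone, so leaving them out does not test the fibroblast ones. In bulk samples such as these, fewer cells that express a gene and less RNA of it per cell cannot be told apart.

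The Rab genes that these macrophages expressed most were Rab5c and Rab1b, followed in every group by Rab1a and Rab7. Levels of different genes were compared per kilobase of annotated exon. On this scale Rab5c, an early endosome Rab, stood at 182 CPM per kilobase in responders, 140.5 in bystanders, 168 in the ungated pool and 102 in untreated cells. Rab1b, of transport from the endoplasmic reticulum (ER) to the Golgi, was at 104, 99.3, 108 and 105 CPM per kilobase in the same order of groups. These 2 genes were the highest members in every group. At the low end Rab37 reached 0.253 CPM per kilobase in responders and 0.117 in untreated cells. By the mean CPM of the library total, Rab37 was the lowest member at 1.12 and Rab6b, a brain-enriched relative of Rab6a, the first gene below the threshold at 0.634. The other 15 genes below it were Rab30, Rab3c, Rab25, Rab33a, Rab39b, Rab44, Rab42, Rab3b, Rab40b, Rab9b, Rab38, Rab26, Rab17, Rab36 and Rab27b, with means of 0.00262 to 0.555 CPM. Rab3c, a Rab of secretory vesicles, had 16, 0, 1 and 1 reads in responder libraries, 0, 0, 13 and 17 in bystander libraries, 0, 0, 19 and 27 in LPS pool libraries and 18, 0, 0 and 0 in untreated libraries. Its reads lay almost entirely in the 6 libraries with neural transcripts.

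More Rab genes were higher than lower in most comparisons, but the balance depended on how libraries were scaled. In responders against bystanders 22 of the 43 members were higher (51.2%) and 13 lower (30.2%), where 34.7% and 35.3% of all tested genes were, or 70% in either direction. In the LPS pool against untreated cells 25 were higher (58.1%) and 9 lower (20.9%), against 34.1% and 37.8% of all genes, or 71.9% in either direction. Responders against untreated cells had 27 higher and 9 lower (36.5% and 38.5% of all genes, 75% in all), and bystanders against untreated cells 28 higher and 7 lower (34.1% and 32.9%, 67.1% in all). These comparisons share control libraries. Scaled by library totals alone, the numbers higher and lower were 11 and 23 for responders against bystanders (20.5% and 53.2% of all genes) and 14 and 22 for the LPS pool against untreated cells (17.6% and 63.8%). They were 16 and 20 for responders and 19 and 15 for bystanders, each against untreated cells (18.2% and 65.4%, and 19.8% and 52.2% of all genes). That scaling moved the median log2 fold over all genes to -0.20 for responders against bystanders and to -0.36 for the pool against untreated cells, in place of -0.01 and -0.03, and the median of the members to -0.10 and -0.13 in place of 0.09 and 0.20. Small folds of single members are therefore relative to the middle of all genes, and those whose direction changed with library totals are named below.

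**Figure D1:**
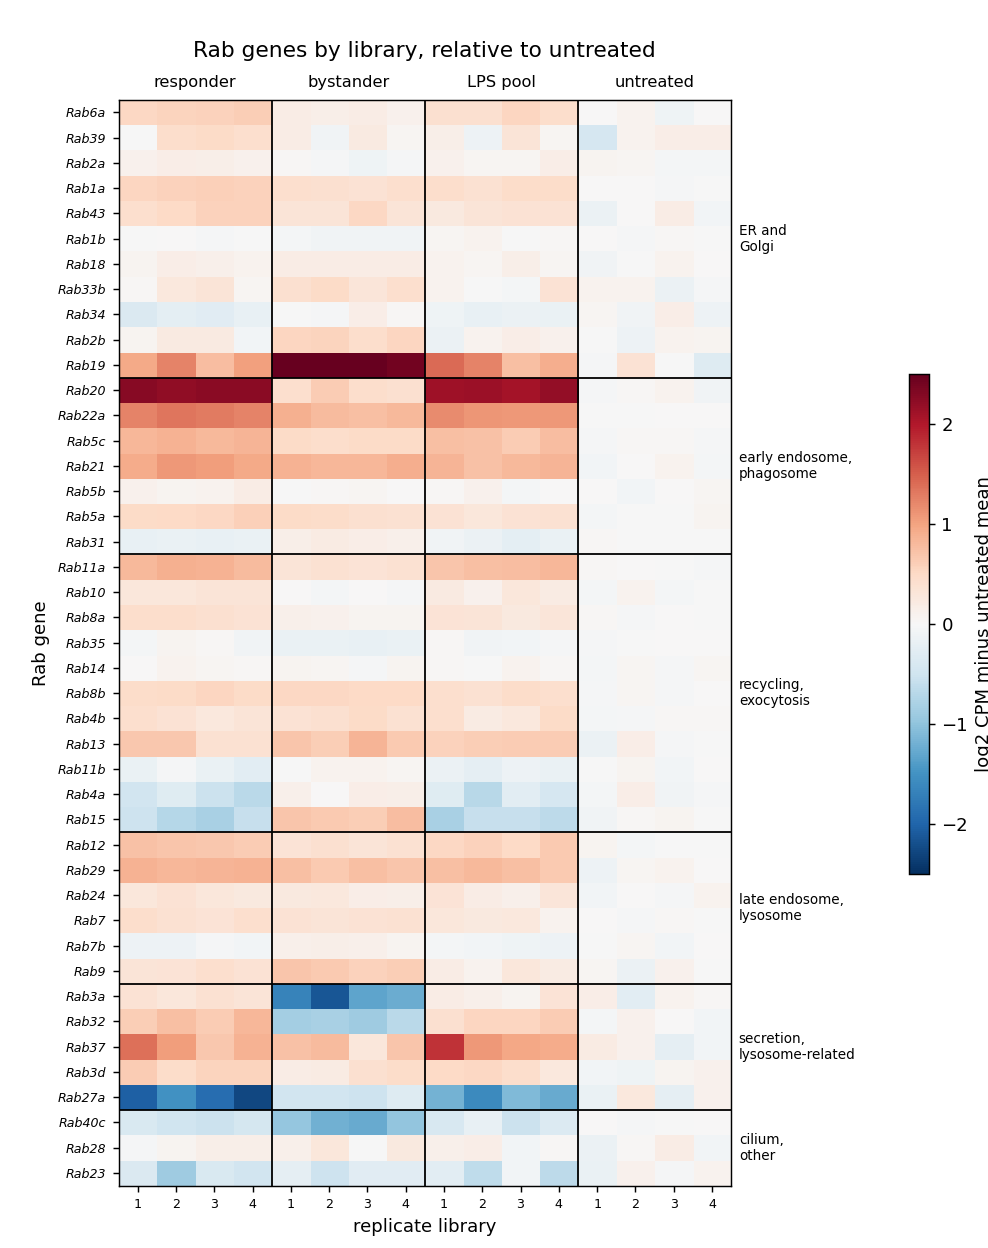
Log2 CPM of the 43 Rab genes in each of 16 libraries, minus the mean of the 4 untreated libraries of the same gene, in rows grouped by role and columns grouped as responder, bystander, LPS pool and untreated. Rab20 is darkest in the responder and LPS pool columns, Rab19 in the bystander columns, and Rab27a is lowest in responders.

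Within each comparison given here, most members, like most genes tested, did not reach a called difference of 1.5-fold. At 1.5-fold or more, 4 were higher in responders than in bystanders (Rab3a, Rab20, Rab32 and Rab40c) and 4 lower (Rab19, Rab27a, Rab15 and Rab4a), which is 8 of 43 beside 11.6% of all genes higher and 12.4% lower by as much. In the LPS pool against untreated cells 9 rose by 1.5-fold or more (Rab20, Rab37, Rab22a, Rab19, Rab21, Rab11a, Rab29, Rab5c and Rab13) and 2 fell (Rab27a and Rab15), beside 15% and 12.4% of all genes. The 4 responder libraries and the 4 bystander libraries did not overlap for 30 of the 43 members (69.8%), beside 63.9% of all tested genes. The pool and untreated libraries did not overlap for 28 (65.1%), beside 64.9% of all tested genes.

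**Figure D2:**
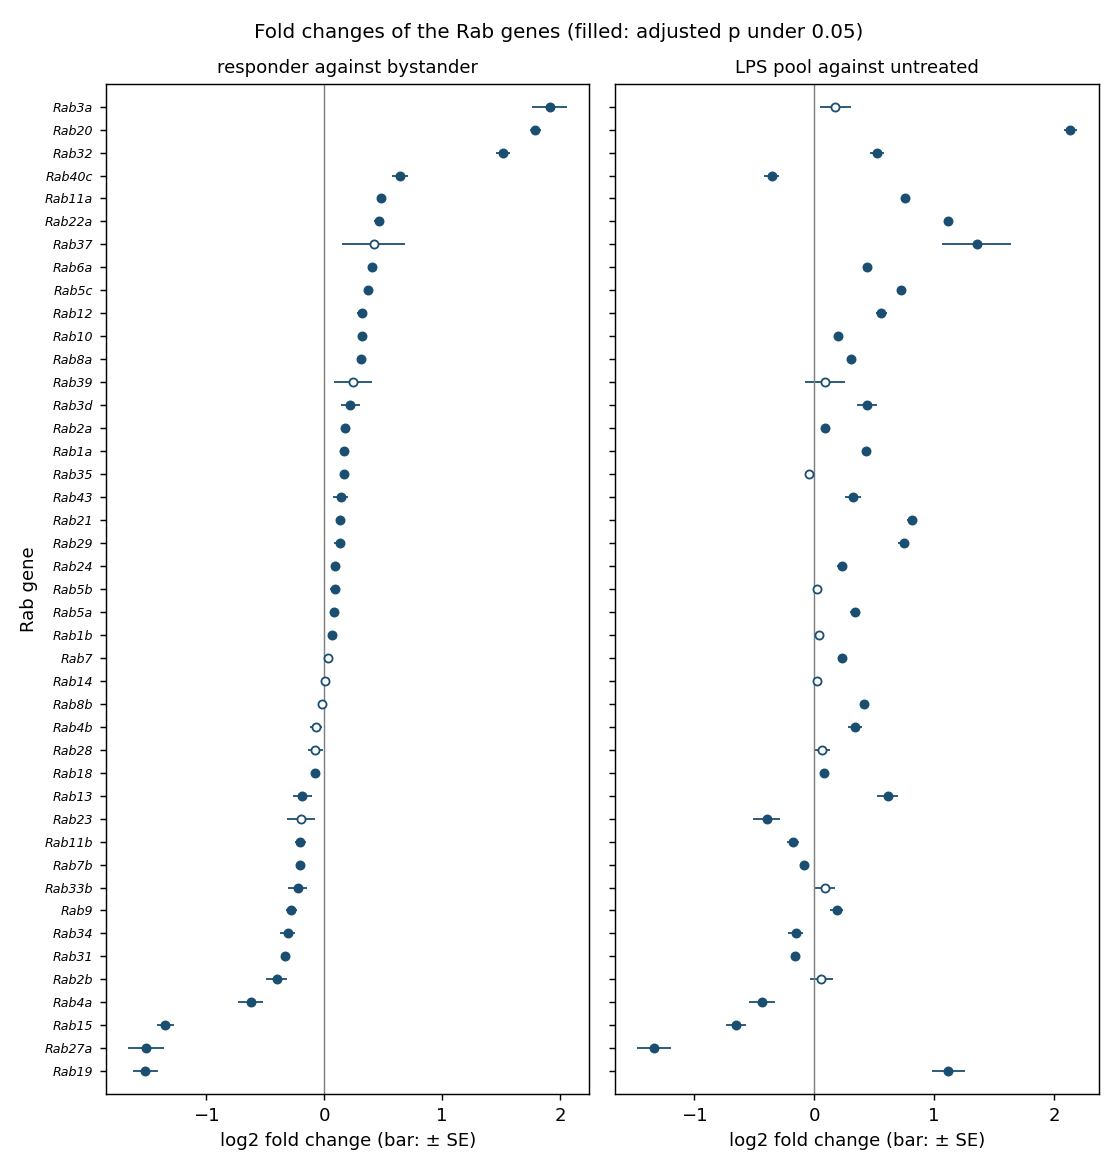
Log2 fold changes of the 43 Rab genes with their standard errors, for responder against bystander on the left and LPS pool against untreated on the right, sorted by the left panel; filled points have an adjusted p under 0.05. Rab3a, Rab20 and Rab32 lie at 1.52 or above and Rab15, Rab27a and Rab19 at -1.34 or below on the left, while on the right Rab20 and Rab37 lie highest and Rab27a lowest.

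Among the Rabs of the early endosome and phagosome, Rab20 differed most between responders and bystanders. Its protein acts in the maturation of phagosomes and macropinosomes. The promoter of Rab20 is shown because the gene had the largest fold of the family in the LPS pool against untreated cells, from RefSeq for GRCm38.p6 at chr8:11478591-11478890 on the minus strand. It is 5′ to 3′, from 250 bases before to 50 after the annotated start, with the 6 letters CACGTG, an E-box that reads the same on both strands, in capitals.
Rab20: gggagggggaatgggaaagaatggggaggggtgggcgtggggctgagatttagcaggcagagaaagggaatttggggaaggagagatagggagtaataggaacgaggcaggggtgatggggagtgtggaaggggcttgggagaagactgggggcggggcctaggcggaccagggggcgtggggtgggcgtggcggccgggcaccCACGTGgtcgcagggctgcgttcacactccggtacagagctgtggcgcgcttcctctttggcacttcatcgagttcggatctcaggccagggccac
The E-box was present in at least 1 window of 6 of the 38 members with a promoter entry (15.8%: Rab20, Rab21, Rab23, Rab24, Rab27a and Rab5a), and of 8.09% of 27025 genes. Counted by window, it was in 6 of 50 member windows and in 7.15% of all windows. The match in Rab20 describes letters, 46 bases before the start, and not a binding site.

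Rab20 (GRCm38, chromosome 8, 11453390 to 11478640) stood at 66.0, 64.0, 65.3 and 65.5 CPM in the responder libraries, against 18.3, 21.1, 18.5 and 18.0 CPM in the bystander libraries. The LPS pool libraries held 59.1, 59.9, 57.5 and 62.4 CPM, against 13.4, 13.9, 14.4 and 12.9 CPM in the untreated libraries. Every responder library was at least 3 times as high as any bystander library, and no 2 groups overlapped. The fold was 3.46 for responders against bystanders (log2 1.79 ± 0.05, edgeR adjusted p = 4.22e-41) and 4.39 for the LPS pool against untreated cells (edgeR adjusted p = 9.71e-44). Bystanders were above untreated cells too, 1.39-fold (edgeR adjusted p = 3.20e-10).

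Rab22a, Rab21 and Rab5c, of early endosome fusion and sorting, rose with LPS in both gates. Rab22a was at 79.8, 85.2, 83.9 and 79.7 CPM in responder libraries and 62.7, 58.9, 57.4 and 59.8 CPM in bystander libraries, and at 77.2, 73.1, 71.6 and 71.7 CPM in LPS pool libraries and 33.7, 33.7, 33.9 and 34.1 CPM in untreated libraries. The 4 groups did not overlap, and the fold was 1.38 between the gates (edgeR adjusted p = 2.54e-18) and 2.17 for the pool against untreated cells (edgeR adjusted p = 1.38e-34). Rab21, which also takes part in integrin uptake, held 113, 126, 124 and 116 CPM in responder libraries, 109, 106, 106 and 112 CPM in bystander libraries, 107, 99.8, 105 and 108 CPM in LPS pool libraries and 57.0, 59.98, 63.8 and 57.9 CPM in untreated libraries. All 12 LPS-treated libraries lay above the untreated ones, with a fold of 1.76 for the pool against untreated cells. Between the gates Rab21 differed little, at log2 0.14 ± 0.03, and with library totals alone the sign turned.

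The 3 Rab5 genes, whose products share the early endosome fusion machinery, had different calls. Rab5c held 397, 407, 391 and 401 CPM in responder libraries and 309.9, 302, 309.7 and 311 CPM in bystander libraries, beside 376, 368, 348 and 379.9 CPM in LPS pool libraries and 219, 226, 228 and 219 CPM in untreated libraries, with no overlap between any 2 groups. It was 1.29-fold higher in responders than in bystanders and 1.65-fold higher in the pool than in untreated cells (edgeR adjusted p = 5.78e-23 and 6.05e-37). Rab5a was at 60.3, 61.3, 61.7 and 65.1 CPM in responder libraries, 60.5, 59.8, 57.5 and 56.5 CPM in bystander libraries, 55.5, 52.5, 55.6 and 56.7 CPM in LPS pool libraries and 41.8, 43.1, 42.9 and 45.3 CPM in untreated libraries. The LPS-treated libraries all exceeded the untreated ones, by 1.27-fold in the pool (edgeR adjusted p = 2.68e-11, but 0.723 with library totals alone), while between the gates the libraries overlapped. That small difference between the gates (log2 0.09, edgeR adjusted p = 0.0311) turned with library totals alone. It was lost without the libraries with neural transcripts (adjusted p = 0.233), and without bystander replicate 3 (0.0656) or 4 (0.0931) or responder replicate 4 (0.118). Rab5b was at 67.1, 65.3, 66.4 and 71.1 CPM in responder libraries, 61.8, 63.9, 64.8 and 63.0 CPM in bystander libraries, 63.4, 67.1, 60.3 and 62.6 CPM in LPS pool libraries and 62.9, 59.5, 62.3 and 64.6 CPM in untreated libraries. For Rab5b the pool and untreated libraries overlapped and no change with LPS was called (edgeR adjusted p = 0.534), and the call between the gates (log2 0.09) turned with library totals alone and was lost without bystander replicate 1 (adjusted p = 0.0537) or responder replicate 4 (0.113). Rab31, a relative of Rab22a that serves transport from the trans-Golgi to endosomes, went the other way: it averaged 156 ± 1.1 CPM in responders and 196 ± 5.15 CPM in bystanders, 1.26-fold lower in responders (edgeR adjusted p = 3.20e-18). As a group, 5 of the 7 early endosome and phagosome Rabs rose in the pool against untreated cells and 1 fell (34.1% and 37.8% of all genes), with a median log2 fold of 0.72 beside -0.03 over all genes. With library totals alone 4 rose and 2 fell (17.6% and 63.8% of all genes), with a median of 0.40 beside -0.36.

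**Figure D3:**
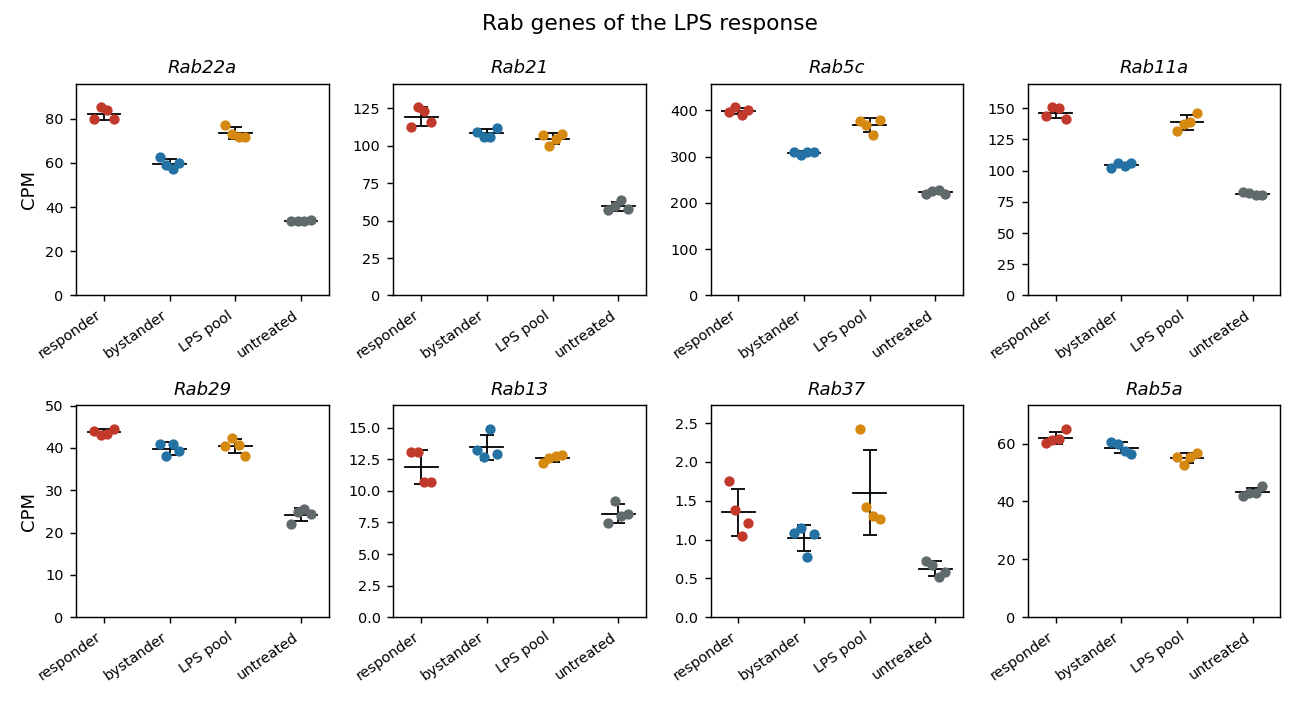
CPM of 8 Rab genes in each library, with points for libraries and bars for mean ± SD over 4 libraries, ordered responder, bystander, LPS pool, untreated. In every panel the untreated mean is the lowest of the 4, and in the Rab22a, Rab5c and Rab11a panels bystanders lie between untreated cells and responders.

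The Rabs of regulated secretion and lysosome-related organelles held 3 of the 8 members that differed by at least 1.5-fold between the gates. Rab32 directs cargo to lysosome-related organelles and is activated by the HPS1-HPS4 complex. It was at 41.4, 45.5, 41.5 and 47.7 CPM in responder libraries, against 14.8, 15.2, 14.4 and 16.9 CPM in bystander libraries. The LPS pool libraries held 35.3, 38.9, 38.7 and 41.7 CPM, against 25.9, 28.8, 27.0 and 25.7 CPM in untreated libraries. Responders were therefore above, and bystanders below, the untreated level, with no overlap among these 3 groups. Rab32 was 2.87-fold higher in responders than in bystanders (log2 1.52 ± 0.06, edgeR adjusted p = 9.14e-32), 1.64-fold higher in responders than in untreated cells and 1.75-fold lower in bystanders than in untreated cells.

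Rab3a, best known from synaptic vesicles and also present on secretory granules, followed the same order at a low level. It had 5.95, 5.68, 6.02 and 5.83 CPM in responder libraries, against 1.37, 0.970, 1.79 and 1.89 CPM in bystander libraries. It had 5.26, 5.08, 4.84 and 5.91 CPM in LPS pool libraries and 5.17, 3.82, 4.89 and 4.72 CPM in untreated libraries. Bystander libraries stood apart below all 12 others, at 3.76-fold between the gates (log2 1.91 ± 0.15, edgeR adjusted p = 9.66e-18). The pool was not called against untreated cells (edgeR adjusted p = 0.217). Responders against untreated cells were called at 1.26-fold (edgeR adjusted p = 0.0125), a call lost without untreated replicate 2 (adjusted p = 0.0738) and a direction that turned with library totals alone. The 2 bystander libraries with neural transcripts had the higher Rab3a levels of that group, and without the 6 such libraries the log2 fold between the gates was 2.31.

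Rab27a, which docks lysosome-related organelles and granules at the plasma membrane, was lowest in responders. Its levels were 1.71, 2.52, 1.89 and 1.45 CPM in responder libraries, 5.27, 5.27, 5.08 and 5.86 CPM in bystander libraries, 3.18, 2.37, 3.35 and 3.03 CPM in LPS pool libraries and 6.57, 8.91, 6.28 and 7.97 CPM in untreated libraries. The gates did not overlap, nor did either gate overlap with untreated cells, while responder and pool libraries did overlap. The gene was 2.85-fold lower in responders than in bystanders (log2 -1.51 ± 0.15, edgeR adjusted p = 1.62e-13) and fell 2.52-fold in the pool against untreated cells (edgeR adjusted p = 5.03e-13). Rab27a was the 1 member called lower in responders than in the LPS pool, at log2 -0.65, a call lost without the 6 libraries with neural transcripts (adjusted p = 0.114). Rab37, found on granules of mast cells, had 1.76, 1.38, 1.05 and 1.21 CPM in responder libraries, 1.09, 1.15, 0.776 and 1.07 CPM in bystander libraries, 2.43, 1.42, 1.30 and 1.27 CPM in LPS pool libraries and 0.725, 0.675, 0.514 and 0.584 CPM in untreated libraries. Its rise in the pool was 2.56-fold (edgeR adjusted p = 2.85e-05), with pool replicate 1 far above the rest of its group, and 1.09 on the log2 scale without that library in place of 1.35. Rab3d, a granule Rab, averaged 13.6 ± 0.642 CPM in responders and 11.6 ± 1.14 CPM in bystanders (1.17-fold, edgeR adjusted p = 0.00953, but 0.711 with library totals alone). Of the 5 members of this role, 3 were higher and 1 lower in responders against bystanders (34.7% and 35.3% of all genes), and under library totals 2 and 1 (20.5% and 53.2%).

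**Figure D4:**
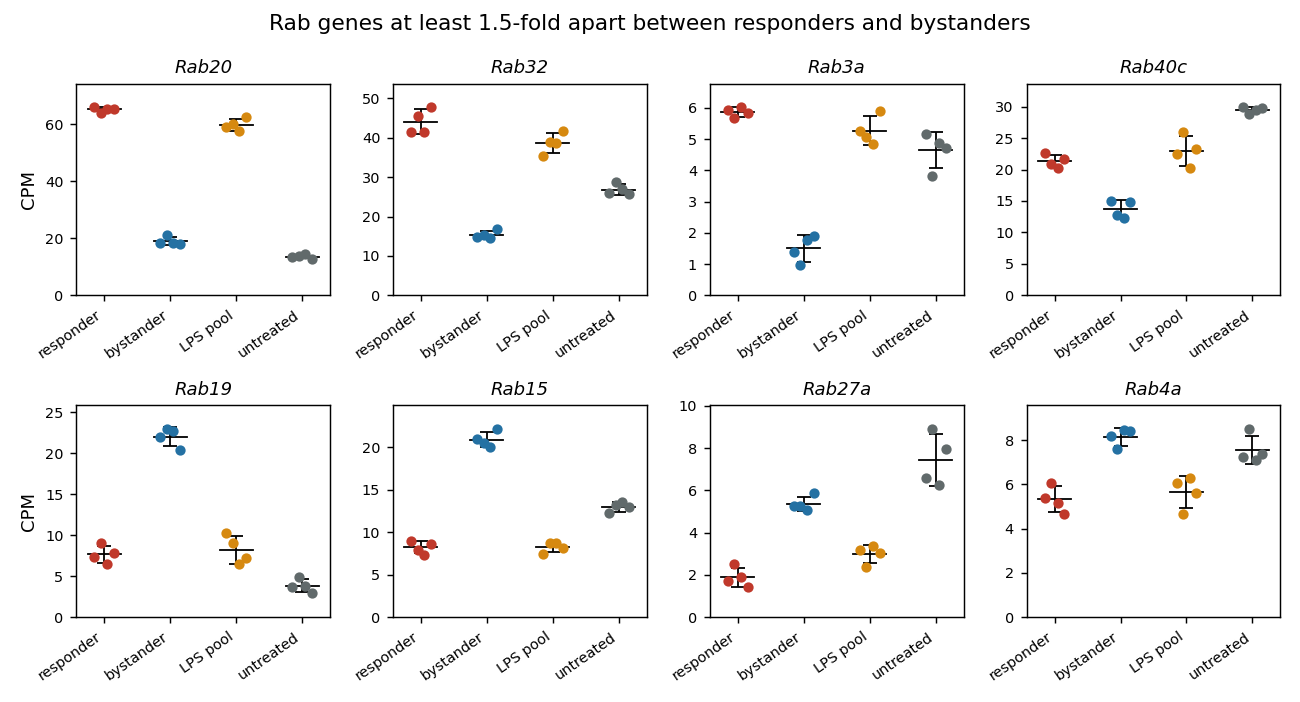
CPM of the 8 Rab genes that differed by at least 1.5-fold between responders and bystanders, with points for libraries and bars for mean ± SD over 4 libraries, ordered responder, bystander, LPS pool, untreated. Responder and bystander points do not overlap in any of the 8 panels. Rab32, Rab3a and Rab40c are lowest in bystanders, and Rab19 and Rab15 are highest in them. Rab4a also has its highest mean in bystanders, but its bystander and untreated points overlap.

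Rabs of recycling and exocytosis at the plasma membrane split between the gates. Rab11a, the Rab of the recycling endosome, was at 143, 151, 150.1 and 142 CPM in responder libraries, 102, 106, 104 and 106 CPM in bystander libraries, 132, 137, 139 and 146 CPM in LPS pool libraries and 83.0, 82.5, 80.8 and 80.3 CPM in untreated libraries. Responder and pool libraries overlapped, bystanders lay between them and untreated cells, and the fold was 1.40 between the gates (edgeR adjusted p = 3.20e-23) and 1.69 for the pool against untreated cells (edgeR adjusted p = 6.99e-32). Its paralogue Rab11b was 1.15-fold lower in responders, at 32.4 ± 2.14 CPM against 37.2 ± 1.04 CPM in bystanders (edgeR adjusted p = 1.51e-04). Rab10, which brings TLR4 to the surface of macrophages, held 198, 198, 203 and 201 CPM in responder libraries and 164, 158, 163 and 158 CPM in bystander libraries, and 189, 175, 196 and 187 CPM in LPS pool libraries and 158, 172, 157 and 162 CPM in untreated libraries. Responders exceeded all other libraries, 1.25-fold above bystanders (edgeR adjusted p = 2.83e-15), while bystander and untreated libraries overlapped. The pool's 1.15-fold difference from untreated cells turned with library totals alone.

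Rab8a, a Rab of exocytosis that also acts at macrophage ruffles, had 113, 113, 110.2 and 107 CPM in responder libraries and 90.7, 90.3, 87.9 and 87.9 CPM in bystander libraries, and 106, 104, 98.6 and 103 CPM in LPS pool libraries and 84.5, 81.5, 84.0 and 83.1 CPM in untreated libraries. The gates did not overlap (log2 0.32 ± 0.03, edgeR adjusted p = 1.28e-14), and the rise in the pool (log2 0.31) turned with library totals alone. Rab8b, its paralogue, averaged 259 ± 6.39 CPM in responders and 262 ± 1.72 CPM in bystanders with no call (edgeR adjusted p = 0.505), and 246 ± 4.91 CPM in the pool against 184 ± 4.35 CPM in untreated cells, 1.34-fold higher. Rab14, which serves traffic between the Golgi, endosomes and phagosomes, was at 178, 188, 184 and 182 CPM in responder libraries, 185, 183, 174 and 185 CPM in bystander libraries, 180.0, 175, 188 and 182 CPM in LPS pool libraries and 171, 183, 174 and 183 CPM in untreated libraries. All 4 groups overlapped for Rab14, with log2 0.01 ± 0.03 between the gates and 0.03 ± 0.03 for the pool against untreated cells, and with library totals alone both turned and were called lower.

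Rab15, a recycling endosome Rab studied mostly in neurons and epithelial cells, was higher in bystanders than in any other group. It held 8.99, 7.90, 7.37 and 8.63 CPM in responder libraries, against 21.0, 20.5, 19.99 and 22.1 CPM in bystander libraries. It held 7.39, 8.69, 8.69 and 8.16 CPM in LPS pool libraries, against 12.2, 13.2, 13.6 and 12.9 CPM in untreated libraries. Responder and pool libraries thus lay below, and bystander libraries above, the untreated ones. The gene was 2.54-fold lower in responders than in bystanders (log2 -1.34 ± 0.08, edgeR adjusted p = 2.90e-24), 1.61-fold higher in bystanders than in untreated cells and 1.57-fold lower in the pool than in untreated cells. Rab4a, of fast recycling from the early endosome, had 5.37, 6.07, 5.18 and 4.67 CPM in responder libraries, 8.19, 7.58, 8.46 and 8.40 CPM in bystander libraries, 6.06, 4.65, 6.27 and 5.63 CPM in LPS pool libraries and 7.25, 8.50, 7.10 and 7.39 CPM in untreated libraries. It was 1.54-fold lower in responders than in bystanders (edgeR adjusted p = 3.99e-07), and bystander and untreated libraries overlapped. Rab13, which acts at cell junctions and in exocytosis, had 13.1, 13.1, 10.7 and 10.7 CPM in responder libraries, 13.2, 12.7, 14.9 and 13.0 CPM in bystander libraries, 12.2, 12.6, 12.7 and 12.8 CPM in LPS pool libraries and 7.43, 9.22, 8.02 and 8.14 CPM in untreated libraries. All LPS-treated libraries exceeded the untreated ones, by 1.53-fold in the pool (edgeR adjusted p = 7.87e-09). The gates overlapped for Rab13, and their difference (log2 -0.18, edgeR adjusted p = 0.0377) was lost with DESeq2 (adjusted p = 0.0744), with no filter on low counts (0.0641) and without the libraries with neural transcripts (0.160). It was also lost without bystander replicate 1 (0.0517) or 3 (0.227) or responder replicate 3 (0.172) or 4 (0.182). Rab35, a Rab of fast recycling and actin, averaged 88.4 ± 4.64 CPM in responders and 78.9 ± 0.711 CPM in bystanders (log2 0.17, turned with library totals alone), beside 86.7 ± 2.82 CPM in the pool and 89.1 ± 1.27 CPM in untreated cells. Rab4b, whose exons are shared over 65.0% of their length with Gm21983 on the same strand, averaged 27.2 ± 1.17 CPM in responders and 28.5 ± 1.11 CPM in bystanders (edgeR adjusted p = 0.248). Of the 11 members of this role, 4 were higher and 4 lower in responders against bystanders (34.7% and 35.3% of all genes), and under library totals 3 and 7 (20.5% and 53.2%).

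Of the 6 late endosome, lysosome and autophagy Rabs, 5 rose and 1 fell in the pool against untreated cells (34.1% and 37.8% of all genes), and 3 were higher and 2 lower in responders against bystanders (34.7% and 35.3%). With library totals alone these numbers were 2 and 4 for the pool (17.6% and 63.8% of all genes), and 1 and 4 between the gates (20.5% and 53.2%). Rab7, which drives fusion of late endosomes and phagosomes with lysosomes, had 195, 188, 183 and 195 CPM in responder libraries and 187, 182, 186 and 188 CPM in bystander libraries, and 176, 173, 175 and 154 CPM in LPS pool libraries and 145, 143, 147 and 144 CPM in untreated libraries. The gates overlapped with no call (log2 0.03 ± 0.03, edgeR adjusted p = 0.293), and with library totals alone Rab7 was called lower in responders. The pool exceeded untreated cells 1.17-fold (edgeR adjusted p = 5.21e-10), a direction that turned with library totals alone. Rab29, a partner of the kinase LRRK2, had 44.0, 43.1, 43.4 and 44.5 CPM in responder libraries, 41.0, 38.0, 41.0 and 39.4 CPM in bystander libraries, 40.5, 42.2, 40.6 and 38.1 CPM in LPS pool libraries and 22.1, 24.8, 25.5 and 24.3 CPM in untreated libraries. All LPS-treated libraries stood above the untreated ones, 1.68-fold in the pool (edgeR adjusted p = 6.18e-21), while the small difference between the gates (log2 0.13) turned with library totals alone.

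Rab7b, a late endosome Rab that lowers TLR4 by sending it to lysosomes in macrophages, averaged 122 ± 4.47 CPM in responders and 141 ± 3.21 CPM in bystanders, 1.15-fold lower in responders (edgeR adjusted p = 3.91e-09). It stood at 123 ± 3.16 CPM in the pool and 130.2 ± 4.32 CPM in untreated cells, and bystanders were the highest group with TMM. Under library totals Rab7b was lower in bystanders than in untreated cells, at log2 -0.0784 (adjusted p = 0.0100). Rab9, which returns receptors from late endosomes to the Golgi, averaged 31.2 ± 0.897 CPM in responders, 37.9 ± 1.16 CPM in bystanders, 27.8 ± 1.49 CPM in the pool and 24.4 ± 1.78 CPM in untreated cells, and was 1.21-fold lower in responders than in bystanders (edgeR adjusted p = 1.29e-06). Rab12, an LRRK2 substrate of the route from recycling endosomes to lysosomes, was 1.25-fold higher in responders than in bystanders (edgeR adjusted p = 8.42e-10) and 1.47-fold higher in the pool than in untreated cells. Rab24, an autophagy Rab, differed by log2 0.10 between the gates, a direction that turned with library totals alone. The call was lost without the libraries with neural transcripts (adjusted p = 0.325), and without bystander replicate 3 (0.0768) or 4 (0.0968) or responder replicate 2 (0.103). Its exons lie over 62.4% of their length opposite those of Prelid1, so reads of these genes may not be told apart if strand was not used in counting.

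Among the ER and Golgi Rabs the largest differences were those of Rab19, whose product has been placed at the Golgi and whose role in macrophages is little known. Its promoter is shown because the gene was the member raised most in bystanders and the only one of the 38 with a promoter entry to hold the letters searched for as an interferon-stimulated response element core, GAAA, any 2 bases and GAAA again, on either strand. The window is chr6:39381103-39381402 of GRCm38.p6 from RefSeq, on the plus strand, 5′ to 3′ from 250 bases before to 50 after a start that lies inside the annotated span of the gene, with 2 overlapping matches on the opposite strand in capitals.
Rab19: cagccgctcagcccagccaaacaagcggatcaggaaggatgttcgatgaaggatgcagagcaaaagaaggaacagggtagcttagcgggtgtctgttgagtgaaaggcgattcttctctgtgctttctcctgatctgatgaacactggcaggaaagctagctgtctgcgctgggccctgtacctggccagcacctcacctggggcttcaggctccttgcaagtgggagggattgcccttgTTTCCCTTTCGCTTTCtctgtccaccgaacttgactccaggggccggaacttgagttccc
The same letters were found in 3.99% of 27025 genes and in 3.44% of all promoter windows. A looser kappaB pattern, GGG, any 5 bases and CC, on either strand, was in 30 of the 38 members (78.9%) and in 53.5% of all genes. Counted by window, since a gene can have several, it was in 35 of 50 member windows and in 50.8% of all windows. These matches describe letters in a window of 300 bases and do not show that a factor binds there.

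Rab19 (GRCm38, chromosome 6, 39380709 to 39390666) had 7.37, 9.04, 6.52 and 7.84 CPM in the responder libraries, against 21.9, 23.0, 22.7 and 20.5 CPM in the bystander libraries. It had 10.2, 9.02, 6.46 and 7.18 CPM in LPS pool libraries, against 3.72, 4.86, 3.75 and 3.01 CPM in untreated libraries. The bystander libraries lay above all 12 others, and the untreated libraries below all others. The fold was 2.86 lower in responders than in bystanders (log2 -1.51 ± 0.10, edgeR adjusted p = 2.69e-14), 5.74 higher in bystanders than in untreated cells (edgeR adjusted p = 8.10e-19) and 2.17 higher in the pool than in untreated cells (edgeR adjusted p = 1.42e-08). Without the 6 libraries with neural transcripts the log2 fold between the gates was -1.52.

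The other Rabs of this role moved less. Rab1a, of ER-to-Golgi transport, had 347, 361, 361 and 358 CPM in responder libraries, 320.2, 316, 310.1 and 322 CPM in bystander libraries, 324, 313, 329.8 and 331 CPM in LPS pool libraries and 242, 244, 237 and 238 CPM in untreated libraries. Its rise in the pool was 1.35-fold (edgeR adjusted p = 1.98e-26), and the log2 difference of 0.17 between the gates turned with library totals alone. Its paralogue Rab1b averaged 236 ± 2.91 CPM in responders and 226 ± 2.25 CPM in bystanders, and 244 ± 5.89 CPM in the pool and 238 ± 3.39 CPM in untreated cells, with no call for LPS (edgeR adjusted p = 0.111) that became one with DESeq2 (adjusted p = 0.00490). With library totals alone Rab1b was called lower in the pool than in untreated cells (log2 -0.29). Under that scaling it was also called lower in responders than in bystanders (log2 -0.13). Rab6a, of transport from the Golgi, was 1.33-fold higher in responders than in bystanders (edgeR adjusted p = 9.63e-18) and 1.36-fold higher in the pool than in untreated cells, and 19.0% of its exons lie opposite Mrpl48. Rab2b, a Golgi Rab, was 1.32-fold lower in responders than in bystanders (edgeR adjusted p = 4.54e-05), while its paralogue Rab2a was 1.13-fold higher, a direction that turned with library totals alone. Rab34, which positions lysosomes from the Golgi, was 1.24-fold lower in responders (edgeR adjusted p = 1.52e-05), and Rab33b, which binds the autophagy protein ATG16L1, 1.17-fold lower (edgeR adjusted p = 0.00986), a call lost without responder replicate 1 (adjusted p = 0.0645) or 4 (0.0637). Rab18, of the ER and lipid droplets, differed by log2 -0.08 in responders against bystanders, a call lost with DESeq2 (adjusted p = 0.0914) and without any 1 of the 8 libraries of the gates except responder replicate 2 (0.0617 to 0.164). Rab43 differed by log2 0.14, a direction that turned with library totals alone and a call lost without bystander replicate 1, 2 or 4 or responder replicate 3 or 4 (adjusted p = 0.0845 to 0.107). It shares 75.4% of its exon length with a same-strand gene. Rab39 had no call in responders against bystanders or in the pool against untreated cells (edgeR adjusted p = 0.165 and 0.646).

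Of the 3 members outside these roles, Rab40c differed most. Its product carries a SOCS box and serves as the substrate-binding part of a ubiquitin ligase. It had 22.5, 20.8, 20.3 and 21.7 CPM in responder libraries and 15, 12.7, 12.3 and 14.8 CPM in bystander libraries, and 22.5, 26.0, 20.2 and 23.2 CPM in LPS pool libraries and 29.9, 28.9, 29.5 and 29.8 CPM in untreated libraries. Untreated libraries were the highest and bystander libraries the lowest, with no overlap of either with any other group. Rab40c was 1.56-fold higher in responders than in bystanders (edgeR adjusted p = 8.89e-13), 2.16-fold lower in bystanders than in untreated cells and 1.28-fold lower in the pool than in untreated cells. Rab23 and Rab28, both linked to cilia, had no call between the gates (edgeR adjusted p = 0.127 and 0.320), and Rab23 fell 1.31-fold in the pool (edgeR adjusted p = 0.00159).

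For 13 members bystanders stood at one end of the 4 groups. In 5 members bystanders were below each of the other 3 groups in edgeR's test (Rab3a, Rab32, Rab40c, Rab1b and Rab35), and in 8 above each (Rab19, Rab15, Rab9, Rab2b, Rab33b, Rab31, Rab7b and Rab18), beside 12.4% and 14.5% of all genes. Scaled by totals, Rab3a, Rab32 and Rab40c stayed below each other group and were joined by Rab8a and Rab10, while Rab1b and Rab35 left (10.4% of all genes). Of the 8 above each other group, Rab19, Rab15, Rab9, Rab2b and Rab33b stayed under that scaling and Rab31, Rab7b and Rab18 left, and 5 others joined (11.3% of all genes). Rab18 also left with DESeq2, with median-ratio scaling, with no filter on low counts and without the 6 libraries with neural transcripts. In 22 members, both gates were higher than untreated cells, beside 23.6% of all genes (12 and 11.8% with library totals alone), and these comparisons share the untreated libraries. For 5 members the gates lay with TMM on opposite sides of the untreated level. Rab32 and Rab3a were above it in responders and below it in bystanders, and Rab15, Rab31 and Rab7b below it in responders and above it in bystanders. Among all genes 9.13% did so. Under library totals Rab32 and Rab15 kept this pattern, but the signs of Rab3a in responders (log2 -0.0457) and of Rab31 and Rab7b in bystanders (-0.0351 and -0.0784) turned. Rab2b and Rab33b showed it under that scaling instead, beside 7.85% of all genes. The log2 fold against untreated cells was 0.71 in responders and -0.80 in bystanders for Rab32, -0.66 and 0.69 for Rab15, and -0.18 and 0.16 for Rab31.

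The ungated LPS pool differed from responders in fewer members than from bystanders. In responders against the pool, 16 of 43 members were higher and 1 lower, beside 16% and 9.49% of all genes (25.5% in all). Under library totals these numbers were 7 and 4, beside 8.52% and 19.4% of all genes. With TMM the log2 folds of the members in this comparison ran from -0.645 (Rab27a) to 0.247 (Rab39, not called). In bystanders against the pool 15 were higher and 15 lower, beside 34.1% and 32.9% of all genes (67% in all), and 25 and 10 with library totals alone, beside 47.3% and 21.9%. Set on a line where bystanders are at 0% and responders at 100%, the mean CPM of the pool was at 88.2% for Rab20, 81.3% for Rab32, 86.3% for Rab3a, 96.3% for Rab19, 68.7% for Rab27a and 88.3% for Rab4a. Rab15 was at 99.9% and Rab40c, at 121%, lay beyond the responders. The pool was collected after the gated cells, so gate and collection order cannot be told apart in these comparisons.

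Among the genes that regulate Rabs, differences between the gates ran in both directions. Of 36 exchange factor genes, 13 were higher and 17 lower in responders against bystanders (34.7% and 35.3% of all genes), with a median log2 fold of -0.06 beside -0.01 over all genes. Rabgef1, which activates Rab5, was highest among those higher, at 110.3 ± 1.83 CPM in responders, against 63.1 ± 3.05 CPM in bystanders (1.74-fold), and it rose 3.08-fold in the pool against untreated cells. Dennd6b was 1.73-fold higher in responders and Hps4, a subunit of the complex that activates Rab32, 1.41-fold higher. Rab3il1, an exchange factor of the Rabin8 family, was 4.67-fold lower, at 5.77 ± 0.681 CPM in responders, against 27.0 ± 1.15 CPM in bystanders. Rin2, another activator of Rab5, was 1.97-fold lower, and Sbf2 1.68-fold lower. These 6 differences had edgeR adjusted p of 1.10e-10 or less.

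More GAP genes were lower than higher in responders. Of the 33 in the test, 19 fell and 7 rose relative to bystanders (35.3% and 34.7% of all genes), with a median log2 fold of -0.23 beside -0.01 over all genes. In the pool against untreated cells 22 fell and 7 rose (37.8% and 34.1% of all genes), with a median of -0.32 beside -0.03. With library totals alone the numbers were 24 lower and 5 higher (53.2% and 20.5% of all genes), and 26 lower and 4 higher (63.8% and 17.6%), with medians of -0.42 and -0.65 beside -0.20 and -0.36 over all genes. Tbc1d4, the GAP of Rab10 in glucose transporter traffic, was at 4.73 ± 0.146 CPM in responders, against 17.8 ± 0.857 CPM in bystanders, 3.78-fold lower. Tbc1d8 was 3.77-fold and Sgsm1 2.53-fold lower. Against this direction, Tbc1d13, a GAP of Rab35, was at 206 ± 1.60 CPM in responders, against 70.9 ± 2.66 CPM in bystanders, 2.89-fold higher, and it rose 2.74-fold in the pool. Tbc1d2b was 1.85-fold and Tbc1d10b 1.53-fold higher. The largest edgeR adjusted p of these 6 was 3.74e-19.

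The largest fold of any listed gene was that of an effector. Of the 40 in the test, 15 rose and 17 fell in responders relative to bystanders (34.7% and 35.3% of all genes), with a median log2 fold of -0.14. In the pool against untreated cells 17 rose and 17 fell (34.1% and 37.8% of all genes). Rab11fip1, an effector of Rab11 on recycling endosomes, was at 62.3 ± 1.86 CPM in responders, 8.38 ± 0.760 CPM in bystanders, 51.0 ± 2.104 CPM in the pool and 13.3 ± 0.738 CPM in untreated cells, 7.35-fold higher in responders than in bystanders (edgeR adjusted p = 6.79e-48). Micall2, an effector of Rab8 and Rab13, was 3.60-fold higher in responders than in bystanders and rose 3.55-fold in the pool. Ocrl, a phosphoinositide phosphatase that Rabs recruit, was 1.72-fold higher. Appl2, an effector of Rab5 on early endosomes, was 2.22-fold lower, Plekhm1, which links Rab7 to lysosome fusion, 2.095-fold lower, and Wdr44, which binds Rab11, 1.81-fold lower. The prenylation and recycling list of 8 genes had 4 higher and 3 lower in responders against bystanders (34.7% and 35.3% of all genes). Rabggtb, a subunit of the Rab prenyltransferase, was 1.26-fold higher, and Rabggta, the other subunit, was 1.12-fold higher. Chml, a Rab escort protein, was 1.59-fold lower, Rabif 1.24-fold lower and Gdi2, at 461 ± 8.65 CPM in responders, against 501 ± 12.9 CPM in bystanders, 1.09-fold lower. Under library totals this list had 2 genes called higher and 4 lower, the exchange factors 7 and 21, and the effectors 10 and 24 (20.5% and 53.2% of all genes).

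**Figure D5:**
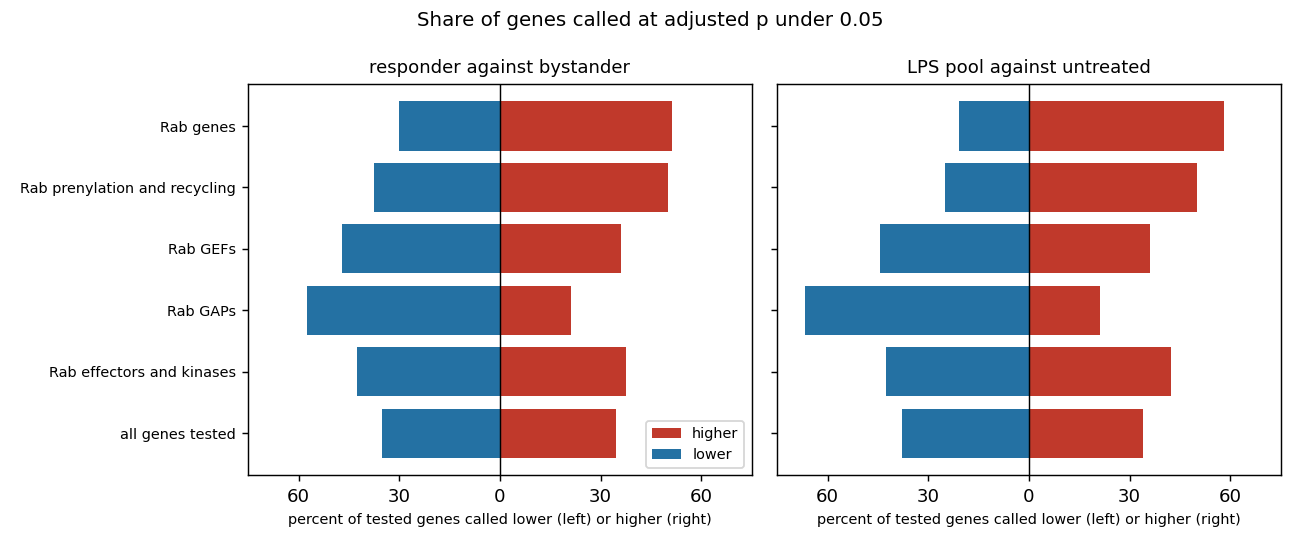
Percent of the 43 Rab genes, of 4 lists of their regulators and effectors, and of all 12589 tested genes called higher (right) or lower (left) at an adjusted p under 0.05, for responder against bystander and for LPS pool against untreated. Rab genes lean to the right in both panels under TMM scaling, at 51.2% and 58.1% higher, while the bars of the GAP list are longest on the left.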

How the data were processed

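RNA of 16 libraries from 4 groups was sequenced. The authors deposited a table of raw counts per gene and library, which carries no normalization. The submitters' processing notes name cutadapt 3.7, fastp 1.1.0, HISAT2 2.2.2, featureCounts 2.1.1 and GRCm38 (mm10). No source used here gives the annotation, the strand setting or the handling of reads with several matches. Of 27179 Entrez identifiers, 25275 matched a RefSeq gene symbol, and the 1904 others held 0.399% of counts and were kept in library sizes and tests.

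Counts were tested with edgeR 4.0.16 (quasi-likelihood, robust) in R 4.3.3, with TMM scaling, filterByExpr, all 16 libraries and 4 group means. P-values were adjusted by Benjamini-Hochberg over 12589 genes and called under 0.05, and limma 3.58.1 was loaded with edgeR. The scripts were tested on simulated data. Depth was 15287344 to 25193162 counts, and the median biological coefficient of variation was 0.0344. The 24 pairs of replicates of 1 group differed by 1.60 to 3.11 times the sampling noise (chi-square per degree of freedom), so none was counted as a duplicate. Same-numbered libraries deviated together with all 4 correlations over 0.1 for responder with untreated (0.169 to 0.605) and bystander with LPS pool (0.391 to 0.475), a pairing seen in the data and not stated in the labels.

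The members, the role groups and the lists of regulators were chosen with earlier results of these data known. Values in every library are given for members that differed at least 1.5-fold between responders and bystanders or between LPS pool and untreated cells, and for Rab1a, Rab5a, Rab5b, Rab7, Rab8a, Rab10 and Rab14. From each list the 3 genes with the largest called fold in each direction at a mean of at least 5 CPM are named, except 1 gene that is not reported here. Exon lengths and overlaps came from GENCODE and promoters from RefSeq, both on GRCm38. Alternatives were DESeq2 1.42.0, other scalings, no filter, only the 2 groups compared, a replicate block, each library left out, and the 6 libraries with neural transcripts left out.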

Additional observations from a re-analysis of the deposited data

Results flagged for a closer look

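In 7 of 172 sets of 4 libraries (a Rab gene in a group), 1 library stood apart from the other 3 by Dixon's test, which chance does in about 1 set in 20. These were Rab5c in bystander replicate 2 at 302 CPM, Rab1b in bystander replicate 1 at 229 CPM, Rab43 in bystander replicate 3 at 23.6 CPM, Rab37 in LPS pool replicate 1 at 2.43 CPM and Rab7 in LPS pool replicate 4 at 154 CPM. Rab39 stood apart in responder replicate 1 at 2.62 CPM and in untreated replicate 1 at 1.95 CPM, both libraries with neural transcripts.

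For 5 of the 43 members responders and bystanders were called on opposite sides of the untreated level, beside 9.13% of all genes tested. The difference between the gates was itself tested, with a log2 fold of responders against bystanders of 1.91 for Rab3a, 1.52 for Rab32, -1.34 for Rab15, -0.33 for Rab31 and -0.20 for Rab7b. Under library totals 3 of the 5 no longer lay on opposite sides: Rab3a in responders, at -0.0457, and Rab31 and Rab7b in bystanders, at -0.0351 and -0.0784, turned against untreated cells.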

How the results depend on the processing

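For the 43 members in the 6 comparisons, 3869 folds under the alternatives that were run were compared with the main ones. In 3630 the call and its direction held, or neither fit called the fold, and in the latter case signs were not compared. Of the folds called in either fit, 133 were no longer called and 52 were newly called. Another 54 turned, all 54 with library totals alone. That setting gave 11 members higher and 23 lower in responders against bystanders, 14 and 22 in the pool against untreated cells, 16 and 20 in responders against untreated cells, 15 lower in bystanders against untreated cells, 7 higher and 4 lower in responders against the pool, and 25 higher in bystanders against the pool. By construction it does not correct for the composition of libraries, and it shifted the median of all genes as given above.

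With library totals alone the log2 folds that turned in responders against bystanders were Rab29 -0.0576, Rab21 -0.0509, Rab5b -0.10, Rab1a -0.0192, Rab24 -0.10, Rab5a -0.10, Rab1b -0.13, Rab14 -0.18, Rab2a -0.0148, Rab35 -0.0253, Rab43 -0.0504 and Rab7 -0.16. In the pool against untreated cells they were Rab5b -0.30, Rab10 -0.13, Rab24 -0.0933, Rab2b -0.27, Rab18 -0.24, Rab1b -0.29, Rab14 -0.30, Rab33b -0.24, Rab2a -0.24, Rab28 -0.26, Rab43 -0.0060, Rab7 -0.10, Rab8a -0.0202 and Rab9 -0.14. In responders against untreated cells they were Rab5b -0.27, Rab10 -0.0800, Rab24 -0.0910, Rab2b -0.27, Rab18 -0.27, Rab14 -0.34, Rab33b -0.215, Rab2a -0.249, Rab28 -0.30, Rab4b -0.0392, Rab3a -0.0457 and Rab9 -0.0254. In bystanders against untreated cells they were Rab7b -0.0784, Rab5b -0.169, Rab34 -0.149, Rab11b -0.143, Rab31 -0.0351, Rab18 -0.00626, Rab14 -0.16, Rab28 -0.0357, Rab6a -0.0377 and Rab8a -0.0963. In bystanders against the pool they were Rab29 0.11, Rab5b 0.133, Rab1a 0.102, Rab24 0.0974, Rab1b 0.0183 and Rab2a 0.00421.

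In responders against the pool 2 members were lower, in place of 1, with DESeq2, with median-ratio scaling, with only the 2 groups compared and without the 6 libraries with neural transcripts. In the last of these settings Rab27a, the 1 member called lower in the main test, was no longer called. Leaving out 1 library at a time gave 19 to 22 members higher and 10 to 13 lower in responders against bystanders, 24 to 25 and 8 to 9 in the pool against untreated cells, 27 to 30 and 9 in responders against untreated cells, 26 to 28 and 7 in bystanders against untreated cells, 11 to 16 and 1 to 2 in responders against the pool (2 without LPS pool replicate 3), and 13 to 15 and 14 to 16 in bystanders against the pool. With the replicate block, 22 members were higher and 13 lower in responders against bystanders and 25 and 9 in the pool against untreated cells, the reported counts, and 14 in place of 15 were higher in bystanders against the pool, where Rab5a was no longer called (adjusted p = 0.0504). The same-number correlations for the comparisons not paired in the data ran from -0.468 to 0.288. The block gives each replicate number an effect common to all groups, so it cannot take up deviations that run opposite ways between groups. Its counts therefore do not test that pairing.

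A planned fit without libraries over 10 CPM in a summed neural list was not run, because every library exceeded it, and the setting without 6 libraries was chosen after seeing the data. The causes of lost calls were not tested. Depth limits Rab37, Rab39, Rab3a and Rab27a, which lay at a few CPM.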
